A study of Mus musculus with 6 samples.

Results

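The response of Setd2-knockout (KO) macrophages to 24 h with lipopolysaccharide (LPS) is described here, from the 2 libraries of that genotype at 0 h and 24 h out of 6 in the series. LPS is a component of the bacterial outer membrane that activates macrophages. A gene was taken as measured if it reached 1 FPKM (sequenced fragments for each kilobase of a transcript, relative to all mapped fragments of the library) in either library, which 11159 of 17904 genes did. Each value below is a level in FPKM or a difference of log2(FPKM + 1), 24 h minus 0 h. That difference understates the change of genes near 1 FPKM. A measured gene was called higher or lower when the difference reached 1 on the log2 scale (2-fold). There was 1 library a side, so no difference has a replicate error or a test, and only sizes are given.

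The series holds wild-type (WT) and Setd2-KO macrophages at 3 times (0, 12 and 24 h with LPS), 1 library each. Cells came from the bone marrow of 8-week C57BL/6 mice and were grown for 5 days with M-CSF, the growth factor that drives macrophage differentiation. All 4 treated libraries received LPS at 100 ng/ml, and the 0 h libraries received none. The labels do not describe the Setd2 allele, how or in which cells it was deleted, or whether the libraries share an animal or a culture. The WT libraries and the KO library at 12 h are given beside the KO pair, for comparison.

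Setd2 encodes the methyltransferase that places trimethylation on lysine 36 of histone H3 along the bodies of transcribed genes. LPS is sensed by Tlr4 with its partners Cd14 and Ly96. The adaptors Myd88 and Ticam1 carry the signal to NF-κB, which drives cytokine and chemokine genes, and to interferon regulatory factors. These induce interferon β, which acts back on the cell through Stat2 and Irf9 to induce antiviral genes. In the same period macrophages stop dividing and alter how they use glucose, arginine, iron and lipids.

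The promoters of 4 genes that stood far from 0 in this response are shown because each holds a short motif linked in textbooks to its gene group. Sequences run 5′ to 3′ on the gene's strand, from 250 bases before the start of transcription to 50 after it, and are RefSeq's for GRCm38.p6. Cxcl3 lies at chr5:90785851-90786150 (plus strand), Cxcl2 at chr5:90903649-90903948 (plus), Isg15 at chr4:156200769-156201068 (minus) and Top2a at chr11:99024140-99024439 (minus). Capitals mark matches to a κB motif (GGG, any 2 bases, TTTCC) in Cxcl3 and Cxcl2, to an interferon-stimulated response element (ISRE: GAAA, any 2 bases, GAAA) in Isg15, and to a cell cycle homology region (CHR, TTTGAA) in Top2a. Both strands were searched, and matches of 1 motif that overlap are marked as 1 stretch. Cxcl3 is the highest ranked chemokine. Cxcl2, Isg15 and Top2a were chosen after their values were seen.
Cxcl3: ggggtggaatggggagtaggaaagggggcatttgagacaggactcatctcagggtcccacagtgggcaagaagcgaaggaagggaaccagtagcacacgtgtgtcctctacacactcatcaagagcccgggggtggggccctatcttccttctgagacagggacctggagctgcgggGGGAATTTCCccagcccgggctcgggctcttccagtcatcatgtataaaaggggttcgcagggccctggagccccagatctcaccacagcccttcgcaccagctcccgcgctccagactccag
Cxcl2: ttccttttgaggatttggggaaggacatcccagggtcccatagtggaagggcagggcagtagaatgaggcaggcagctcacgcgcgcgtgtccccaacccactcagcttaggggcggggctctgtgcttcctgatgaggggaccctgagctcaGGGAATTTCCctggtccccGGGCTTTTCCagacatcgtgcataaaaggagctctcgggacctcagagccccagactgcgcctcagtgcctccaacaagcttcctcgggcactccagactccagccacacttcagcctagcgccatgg
Isg15: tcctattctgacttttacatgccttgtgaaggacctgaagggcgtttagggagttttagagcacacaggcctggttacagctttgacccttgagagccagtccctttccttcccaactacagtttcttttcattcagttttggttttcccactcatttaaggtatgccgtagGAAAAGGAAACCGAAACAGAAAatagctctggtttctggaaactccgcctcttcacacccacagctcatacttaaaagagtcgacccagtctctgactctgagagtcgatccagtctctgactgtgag
Top2a: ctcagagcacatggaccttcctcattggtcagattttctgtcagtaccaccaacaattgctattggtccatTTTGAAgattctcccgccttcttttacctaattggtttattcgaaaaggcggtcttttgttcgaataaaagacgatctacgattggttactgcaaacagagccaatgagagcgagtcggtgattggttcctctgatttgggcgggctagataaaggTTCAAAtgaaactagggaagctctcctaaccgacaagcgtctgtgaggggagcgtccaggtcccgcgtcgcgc

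The κB match of Cxcl3 began 73 bases upstream of the start, and those of Cxcl2 began 97 and 78 bases upstream. Isg15 held overlapping ISRE matches that began 78, 72 and 66 bases upstream. The matches of Top2a began 179 and 23 bases upstream, the latter on the opposite strand. Of all 32851 RefSeq mouse promoters of this length, 1.63% held the κB motif, 3.44% the ISRE and 17.9% the CHR. The ISRE was found in 16 of 31 promoters (51.6%) of interferon-stimulated genes and in 9 of 10 (90%) of interferon-induced GTPases. The κB motif was found in 3 of 8 promoters (37.5%) of CXC chemokines and in 1 of 8 (12.5%) of CC chemokines. The CHR was found in 19 of 24 promoters (79.2%) of genes of mitosis and cytokinesis. An E2F motif (TTTNGCGC with N for any base, in 1.38% of all promoters) was in 9 of 28 (32.1%) of DNA replication genes. A sterol response motif (TCACNCCAC, 1.24%) was in 1 of 20 promoters (5%) of cholesterol genes and in 1 of 20 of fatty acid synthesis genes. The promoters searched did not cover each list in full. They belonged to 26 of 36 listed interferon-stimulated genes, 9 of 14 GTPases, 8 of 11 CXC chemokines and 8 of 13 CC chemokines. For mitosis they covered 22 of 26 genes, for DNA replication 24 of 29, for cholesterol 17 of 25 and for fatty acid synthesis 15 of 18. A match is a string of letters and does not show that a factor binds there.

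The targeted gene was read first. Setd2 stood at 9.96, 9.16 and 5.11 FPKM at 0, 12 and 24 h in the libraries labelled KO and at 7.83, 8.68 and 7.51 FPKM in WT. Its level was thus not lower in the KO library than in WT at 0 h or 12 h. Reads from the remaining exons of a partly deleted transcript still count toward the gene, so the level is no check of the labels. The 24 h minus 0 h difference of Setd2 in KO was -0.84, or -0.30 with the length trend described below removed. All 10 macrophage markers exceeded 1 FPKM at both times in KO, with a summed level of 2756 FPKM at 0 h and 4068 at 24 h. The increase of the sum lay mostly in Cd14, Fcgr1 and Adgre1, while 5 of the 10 were lower at 24 h, namely Cd68 (1185 and 901 FPKM), Csf1r, Itgam, Mertk and Mrc1. Lyz2, one of these markers, stood at 17.7 and 54.5 FPKM in KO and at 5502 and 9015 FPKM in WT. Of 8 neutrophil markers 6 and then 4 reached 1 FPKM, with sums of 55.0 and 66.3 FPKM. S100a8 gave 19.6 and 52.9 FPKM of these. Ly6g (0 and 2.28 FPKM) and the granule gene Camp (1.41 and 2.01) were also higher at 24 h, while S100a9 and the granule genes Mpo, Elane, Ngp and Ltf were lower. Markers of T, B and NK cells, dendritic cells, mast cells, erythroid cells and adipocytes summed to at most 3.08 FPKM per cell type at either time. These sums rest on 2 of 5 listed adipocyte markers, 4 of 6 for T cells, and 4 of 5 each for mast and erythroid cells. The other listed markers of these types have no deposited value. Fibroblast markers summed to 11.9 and 10.9 FPKM, and endothelial markers to 8.82 and 6.08. In bulk RNA, a change in the number of cells of a type and a change in RNA per cell cannot be told apart. Estimated depth was 21740000 mapped reads at 0 h and 22520000 at 24 h. A transcript of median length at 1 FPKM rests on about 60.5 reads. The FPKM total was 461013 at 0 h and 582083 at 24 h, and the 10 most abundant genes held 11.9% and 22.9% of it. At 24 h, 6.53% of the total was Saa3 and 7.01% was Fth1.

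After 24 h the KO macrophages were higher in chemokine genes (18 of 22 called higher), in inflammatory cytokine genes (14 of 16) and in genes of nitric oxide, arginine and itaconate (7 of 9), and Saa3, Cxcl3 and Il1b lay farthest above 0. Genes of mitosis and cytokinesis (26 of 26 called lower) and of DNA replication (28 of 29) were lower. Genes of cholesterol synthesis and uptake (18 of 24), of fatty acid synthesis (10 of 16) and of the uptake of dying cells (9 of 16) were lower. Interferon-stimulated genes (28 of 36), MHC class I genes (11 of 16) and glycolysis and hypoxia genes (13 of 23) were higher. In all, 872 of 11159 measured genes (7.81%) were called higher and 2489 (22.3%) lower. The median gene differed by -0.41, with quartiles of -0.93 and 0.15. The split depended on scaling. With trimmed-mean scaling, 1502 genes passed the 2-fold rule upward and 1471 downward, and the median became -0.02; with median-of-ratios scaling the counts were 1456 and 1393. Under either scaling 50.5% to 51.1% of calls were higher, against 25.9% as deposited. Values below are given as deposited, with a median gene of -0.41. A difference of at least 3 was seen for 126 higher and 158 lower genes, and 4413 genes lay within 0.5 of no difference.

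**Figure D1:**
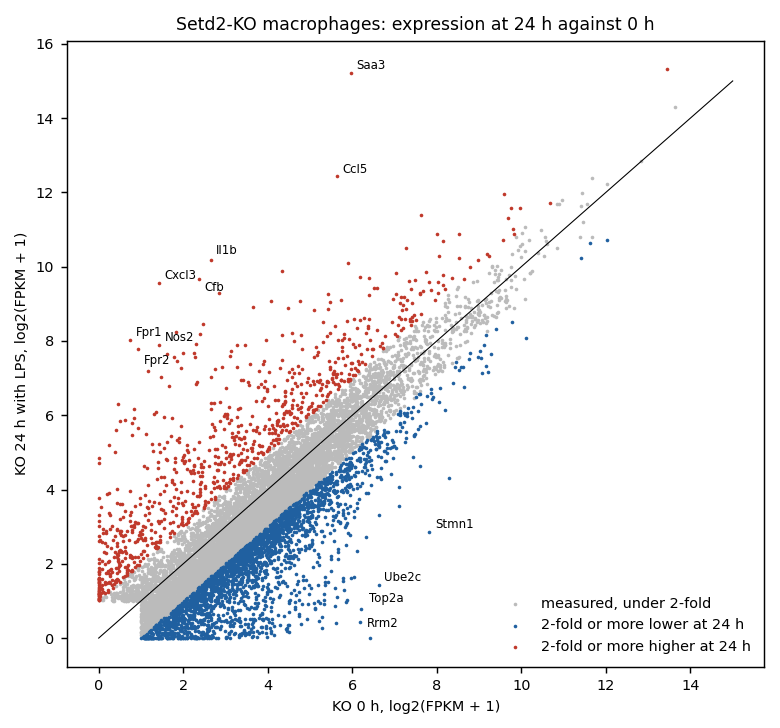
Each point is 1 of 11159 measured genes in Setd2-KO macrophages, placed by log2(FPKM + 1) at 0 h (x axis) and after 24 h with LPS (y axis), 1 library each. The line marks equal levels. Red points (872) were called higher and blue points (2489) lower, and Saa3 lies farthest above the line.

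The 15 highest genes were led by Saa3, an acute phase protein of macrophages, at 61.4, 10221 and 37989 FPKM at 0, 12 and 24 h, a difference of 9.25. The neutrophil attractant Cxcl3 followed with 1.69, 273 and 760 FPKM (8.14), then Il1b with 5.29, 1259 and 1164 FPKM (7.53). Cfb, the factor B of the alternative complement pathway, went from 4.19 to 817 FPKM (7.30). Fpr1 (7.27) and Fpr2 (6.83), receptors for formylated bacterial peptides, came next. Ccl5, which attracts T cells, went from 49.2 to 5545 FPKM (6.79), and Nos2, the inducible nitric oxide synthase, from 1.71 to 237 (6.46). The iron-scavenging protein Lcn2 (6.44) and the scavenger receptor Marco (6.40) were similar in size. Il1a (6.03), the hemoglobin-binding protein Hp (6.03), Ifi205 (5.98), Ccl12 (5.78) and Socs3 (5.77) completed the 15. Levels of 5 of them were higher at 12 h than at 24 h and of 10 higher at 24 h. All 15 were also called higher in WT.

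The 15 lowest genes all belong to DNA synthesis or cell division. Rrm2, the small subunit of ribonucleotide reductase, was at 71.7, 4.23 and 0.36 FPKM at 0, 12 and 24 h (-5.74). Top2a, which untangles DNA, was at 73.2, 5.93 and 0.72 FPKM (-5.43). Cyclin genes were among them, with Ccna2 (-5.21), Ccnb2 (-5.01) and Ccnb1 (-4.74). The others were Ube2c (-5.20), the microtubule regulator Stmn1 (-4.96), Birc5 (-4.87), Cdca3 (-4.74), the mitotic kinase Plk1 (-4.72), Uhrf1 (-4.51), Tk1 (-4.50), Kif23 (-4.41), Cdc20 (-4.41) and Mcm2 (-4.39). Every one was lower at 24 h than at 12 h in KO, and every one was also called lower in WT. Because many of these genes were near 0 FPKM at 24 h, their differences are limited by the pseudocount of 1.

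The difference varied with transcript length. Over the 5605 genes that averaged at least 10 FPKM in the pair, Spearman's rho between length and the KO difference was -0.37, as a description across genes that are not replicates. The same genes gave 0.15 in WT (24 h minus 0 h) and 0.06 in KO at 12 h. Transcripts of up to 512 nt had a median difference of 0.34 (68 genes), those of 1024 to 2048 nt of 0.00 (1610 genes), and those over 8192 nt of -1.21 (78 genes, of which 46 were called lower and 1 higher). In WT the medians of these classes were -0.58, -0.32 and -0.07. Genes called higher had a median length of 1810 nt, genes called lower 3594 nt and all measured genes 2735 nt. GC content showed a weaker relation, with a rho of 0.15. A smooth curve over length was then removed from each library, fitted to its levels relative to the mean of all libraries of the series. Removing it brought rho to -0.04 and left 849 genes (7.61%) called higher and 2067 (18.5%) lower. Transcripts over 8192 nt still had a median of -0.59 after removal, against -0.17 to -0.27 in the other classes. Of the calls, 752 higher and 1874 lower were the same genes both ways. For each gene group below, medians are given in a fixed order: as deposited, with the length trend removed, and with trimmed-mean scaling (scaled). Counts called are as deposited, and the part of length in any 1 gene's value was not tested. Of the list members named below as called lower, Tlr9, Tlr13, Rel, C5ar2, Sigirr, Mmp12, Timp2, Trem2, Gpnmb, Fh1, Ndufs1, Sel1l, Rpl3 and Ash1l lost the call when scaled, with values from -0.98 to -0.54. Of those named as not called, Osm, Oas2, Oas3, Cyba, Ncf4, Nlrp3, Atf4, Actb and Gapdh passed the rule upward when scaled.

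**Figure D2:**
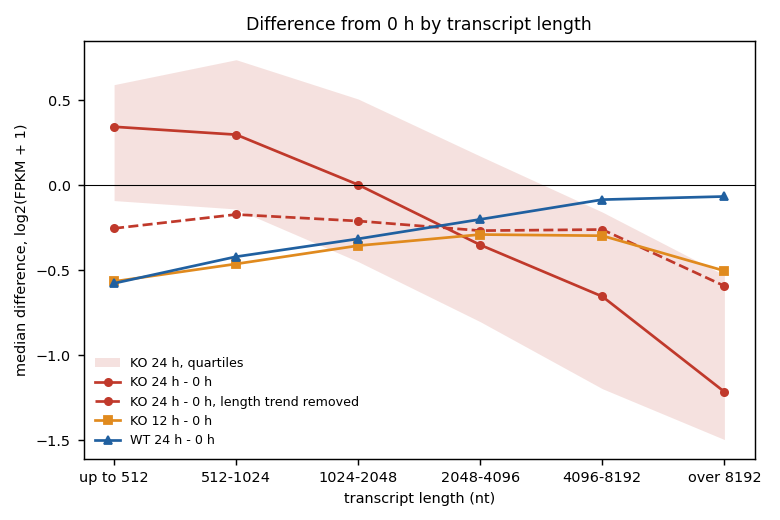
Median difference from 0 h on the log2(FPKM + 1) scale (y axis) by class of transcript length in nt (x axis), over 5605 genes. The red solid line is KO at 24 h with its quartiles shaded, falling from 0.34 to -1.21; the dashed line is the same with the length trend removed, orange squares are KO at 12 h and blue triangles WT at 24 h.

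LPS sensing genes differed little as a group. The median over 24 receptors and adaptors was -0.24, with 3 called higher and 2 lower, and it turned to 0.17 with trimmed-mean scaling and to 0.01 with the length trend removed. Cd14, the LPS co-receptor, stood at 161 FPKM at 0 h and 788 at 24 h (2.29), and the lipopeptide receptor Tlr1 at 6.91 and 34.6 (2.17). Myd88 was the third gene called higher (1.16). Tlr4 itself was at 15.6, 11.4 and 9 FPKM over the 3 times (-0.73), and the nucleic acid receptors Tlr13 (-1.19, but -0.87 without the length trend) and Tlr9 (-1.30) were called lower. When scaled, 0 of the 24 were called lower. Of 15 NF-κB subunits and IκB proteins, 8 were called higher and 1 lower (median 1.31; 1.12 without the length trend; 1.77 scaled). The inhibitor Nfkbia went from 57.4 to 372 FPKM (2.68). The nuclear cofactors Bcl3 (2.70) and Nfkbiz (2.20) and the subunits Relb (1.97) and Nfkb2 (1.94) were also higher. Rela (0.26) and Nfkb1 (0.18) were not called. The subunit gene Rel was called lower (-1.07), but only -0.67 without the length trend, on a transcript of 7466 nt.

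Inflammatory cytokines were higher, with 14 of 16 measured members called higher and 0 lower. Their median was 1.85 (1.59 without the length trend; 2.29 scaled), and 1.37 in WT. Il1a was at 2.09, 467 and 200 FPKM in KO over the 3 times (6.03), against 0.71, 160 and 25.7 FPKM in WT. Tnf was at 14.7, 184 and 100 FPKM (2.69). Il6, at 0.21, 27.1 and 8.92 FPKM (3.04), and Il12b, at 1.25, 76.3 and 16.3 FPKM (2.94), were highest at 12 h. Csf3, which drives neutrophil production, stood at 0.04, 10.2 and 10.6 FPKM in KO (3.48). In WT it stood at 0, 14.6 and 0.79 FPKM at 0, 12 and 24 h. Of the 14 called cytokines, 10 had a higher level at 12 h than at 24 h. Ebi3 (2.45) and Il27 (2.01), the subunits of interleukin 27, and Il15 (1.70) and Il18 (1.59) were called too. Osm (0.75) and Csf1 (0.13), which encodes M-CSF, were not.

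Chemokines were among the groups farthest above the median gene, and 11 of the 18 called higher were higher at 24 h than at 12 h. Of 12 CC chemokines 9 were called higher and 1 lower (median 2.20; 1.79 without the length trend; 2.66 scaled). Of 10 CXC chemokines 9 were called higher and 1 lower (median 3.07; 2.91; 3.52). The monocyte attractants Ccl2 (282, 1041 and 1638 FPKM; 2.53), Ccl7 (82.5, 360 and 832 FPKM; 3.32) and Ccl12 (4.28, 148 and 290.0 FPKM; 5.78) were each highest at 24 h. In WT these 3 genes stood at 11.7, 1.06 and 0.28 FPKM at 0 h and at 300, 91.8 and 35.15 FPKM at 12 h. At 24 h they stood at 108, 23.1 and 24.7 FPKM in WT, differences from 0 h of 3.10, 3.55 and 4.33. Ccl8 (4.94), Ccl22 (2.97), Ccl3 (1.86), Ccl4 (1.85) and Ccl17 (1.84) were the other called members beside Ccl5. Cx3cl1 was called lower (-1.20), from 2.41 to 0.48 FPKM.

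Among CXC chemokines, the neutrophil attractants Cxcl2 (3.80, 173 and 205 FPKM; 5.42) and Cxcl1 (0.30, 24 and 31.2 FPKM; 4.63) followed Cxcl3. Cxcl10, a ligand of Cxcr3, was at 15.98, 760 and 534 FPKM (4.98), and its relatives Cxcl11 (3.23) and Cxcl9 (2.70) were also highest at 12 h. Platelet factor Pf4 went from 89.9 and 95.5 FPKM at 0 and 12 h to 685 at 24 h (2.92). Cxcl14 was called lower (-1.66). Receptors for chemoattractants split, with 6 of 15 called higher and 4 lower (median 0.82; 1.05; 1.29). Beside Fpr1 and Fpr2 the higher ones were Cmklr1 (2.47), Ccr7 (2.28), Ccr3 (2.14) and Ccrl2 (2.02). The monocyte receptors Cx3cr1 (35.8 to 2.93 FPKM; -3.23) and Ccr2 (22.1 to 2.79 FPKM; -2.61) were lower, with Cxcr4 (-2.30) and C5ar2 (-1.03). C5ar2 was not called without the length trend (-0.90).

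**Figure D3:**
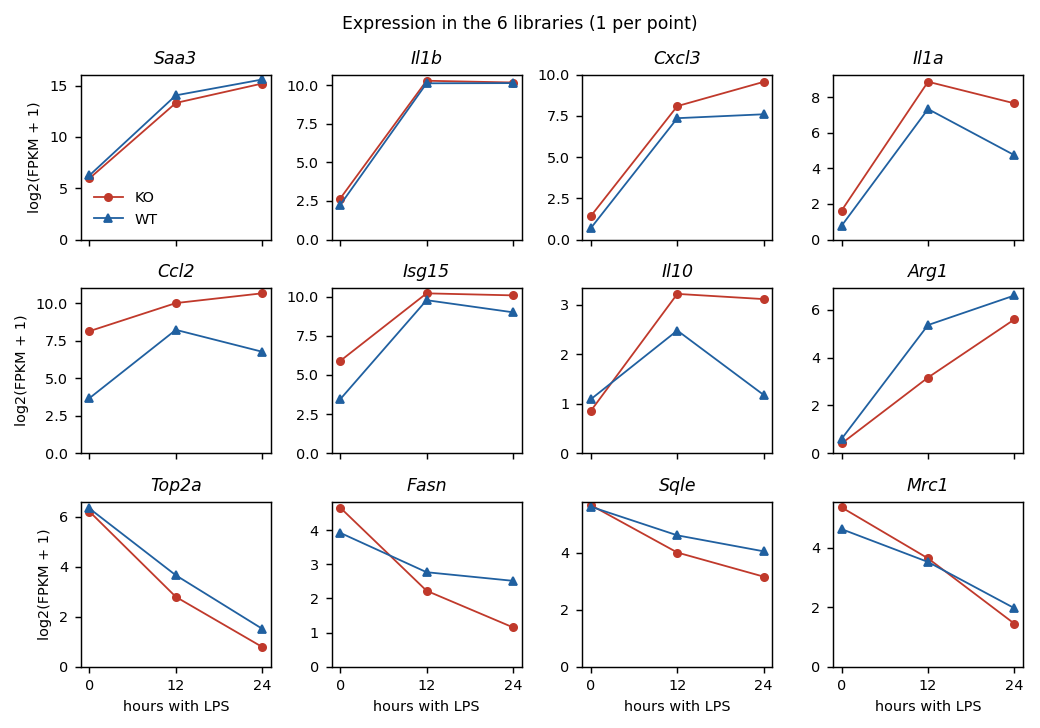
Level of 12 genes as log2(FPKM + 1) (y axes, scaled per gene) at 0, 12 and 24 h with LPS (x axes) in KO (red circles) and WT (blue triangles), 1 library per point. Il1a is higher at 12 h than at 24 h, Ccl2 and Arg1 are highest at 24 h in KO, and Top2a, Fasn, Sqle and Mrc1 are lowest at 24 h.

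Interferon-stimulated genes were higher at 24 h in KO, from a starting level that was above that of WT. Of 36 members 28 were called higher and 0 lower, and their median was 1.98 (2.10 without the length trend; 2.44 scaled). In WT all 36 were called higher, with a median of 3.57. Isg15, a ubiquitin-like protein, stood at 58.6, 1200 and 1097 FPKM in KO (4.20), against 9.86 FPKM at 0 h and 516 at 24 h in WT (5.57). Irf7, which amplifies interferon production, was at 153, 1073 and 1454 FPKM in KO (3.24), and at 18.7 and 1067 FPKM in WT at 0 and 24 h (5.76). For both genes the 24 h level in KO was above that of WT, while the difference from 0 h was smaller. The others with the largest differences were Isg20 (4.37), Oasl1 (4.31), Ifit3 (3.84) and Ifit3b (3.71). Siglec1, a sialic acid receptor, was at 77.9 and 112 FPKM at 0 and 24 h in KO (0.51) and at 8.25 and 128 FPKM in WT (3.80). Irf9 (0.05), Eif2ak2 (0.38), Oas3 (0.78) and Oas2 (0.83) were also not called in KO. With the length trend removed Siglec1 (1.01), Oas3 (1.16) and Oas2 (1.12) were called, and 33 of the 36 members were called higher that way. The count was also 33 when scaled, but Siglec1 (0.98) was then not among them. Of the 28 called members 20 had a higher level at 12 h than at 24 h. Whether the 2 genotypes' responses differ was not tested, since each rests on 1 library a side.

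The interferon-induced GTPases, which attack vacuoles that hold microbes, had 12 of 14 called higher and 0 lower (median 2.57; 2.81; 3.01; WT 3.01). Gbp2 was at 10.9, 668 and 165 FPKM (3.80) and Gbp6 at 2.34, 116 and 59.4 FPKM (4.18). All 12 called members were higher at 12 h than at 24 h. Ifnb1 itself was low, at 0.19, 1.52 and 1.85 FPKM (1.26). Reads of near-identical copies may be split among them, as for Ifit3 and Ifit3b, Oas1a and Oas1g, Tgtp1 and Tgtp2, Bcl2a1b and Bcl2a1d, Hspa1a and Hspa1b, Lyz1 and Lyz2, the H2-Q genes and the histones, so the value of each copy is uncertain.

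Feedback inhibitors of inflammatory signalling were mostly higher, with 14 of 25 called higher and 2 lower (median 1.25; 1.46; 1.68). Socs3, which limits cytokine receptor signals, was at 2.46, 296 and 187 FPKM (5.77), and Socs1 at 5.6, 83.21 and 78.8 (3.60). Il1rn, the natural antagonist of interleukin 1, was at 71.5, 2158 and 837 FPKM (3.53). Il10, the main anti-inflammatory cytokine of macrophages, was at 0.81, 8.35 and 7.69 FPKM in KO (2.26), and at 1.13, 4.59 and 1.26 FPKM in WT (0.09). The immune checkpoint ligand Cd274 (2.98), the kinase-like inhibitor Irak3 (2.43) and the phosphatases Dusp2 (2.37) and Dusp1 (1.90) were called. All 14 called members were higher at 12 h than at 24 h. Dusp4 (27.3 to 6.86 FPKM; -1.85) and Sigirr (-1.16) were called lower.

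Genes that supply and use arginine for nitric oxide, with itaconate synthesis, were called higher in 7 of 9 cases and lower in 0 (median 3.24; 3.58; 3.69). Acod1, which makes itaconate, was at 19.3, 1941 and 938 FPKM (5.53). Arg1, which splits arginine and competes with Nos2 for it, was at 0.32, 7.97 and 47.6 FPKM (5.20). Ass1, which regenerates arginine from citrulline, went from 32.9 to 458 FPKM (3.76), and the arginine transporter Slc7a2 from 2 to 27.3 (3.24). Gch1, which makes a cofactor of Nos2, was higher (2.09). The genes of the phagocyte oxidase and microbicidal proteins had 6 of 13 called higher and 0 lower (median 0.93; 0.69; 1.39). Cybb, the catalytic subunit of the oxidase, was at 163, 576 and 383 FPKM (1.23). Its partners Cyba (0.88), Ncf4 (0.93) and Ncf1 (0.41) were not called, while Rac2 was (1.61).

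Genes of prostaglandins and leukotrienes split, with 3 of 15 called higher and 5 lower, and their median of -0.22 (-0.30 without the length trend) turned to 0.24 when scaled. The inducible pair of prostaglandin E2 synthesis was higher: Ptges at 2.99, 305 and 205 FPKM (5.69) and Ptgs2 at 0.67, 72.2 and 14.5 FPKM (3.22). The constitutive Ptgs1 (8.33 to 0.67 FPKM; -2.48), Hpgds (55.7 to 6.96 FPKM; -2.83) and Alox5, which starts leukotriene synthesis (5.74 to 0.24 FPKM; -2.44), were lower. Hpgd, which degrades prostaglandins, stood at 8.99, 0.47 and 0.03 FPKM (-3.28). Of 16 genes of inflammasomes and cell death 7 were called higher and 0 lower (median 0.80; 0.83; 1.26). Fas (3.80), Mefv (3.43), Casp4, a sensor of cytosolic LPS (2.23), Casp1 (1.45) and the pore-forming Gsdmd (1.21) were among them, and Nlrp3 (0.62) was not. In the group of matrix proteases and the plasmin system 7 of 16 were called higher and 3 lower (median 0.46; 0.41; 0.90). Serpinb2, an inhibitor of plasminogen activators, was at 0.55, 58.4 and 58.0 FPKM (5.25), and its target Plau at 313, 44.8 and 19.0 (-3.97). F10 (4.54), Mmp14 (4.43) and Timp1 (4.35) were higher, and Mmp12 (-1.34) and Timp2 (-1.30) lower.

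MHC class I presentation was higher as a group, with 11 of 16 called higher and 0 lower (median 1.65; 1.42; 2.11). The heavy chain gene H2-K1 was at 815, 1565 and 2548 FPKM (1.64) and H2-Q7 at 4.03, 58.7 and 117 (4.55). The immunoproteasome subunits Psmb8 (1.77), Psmb9 (1.48) and Psmb10 (2.27) and the peptide transporter genes Tap1 (1.88) and Tap2 (1.51) were called together. MHC class II and costimulation genes had 4 of 13 called higher and 1 lower (median 0.70; 0.43; 1.16). The costimulator Cd40 was at 3.35, 200 and 31.3 FPKM (2.89), Cd86 was higher by 1.23 and H2-Ab1 by 1.34. H2-Aa (0.27) was not called, and the class II activator Ciita stood at 1.65, 7.57 and 1.04 FPKM (-0.38).

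Genes for the uptake of dying cells were lower, with 0 of 16 called higher and 9 lower. The median was -1.31, -1.04 without the length trend and -0.86 scaled, against -0.69 in WT. Gas6, which bridges dying cells to their receptors, was at 136, 28.2 and 15.7 FPKM (-3.04). The receptor subunits Itgav (54.3 to 9.94 FPKM; -2.34) and Itgb3 (14.6 to 2.34 FPKM; -2.22) were lower. Lrp1 was at 292, 136 and 69.5 FPKM (-2.06, and -1.17 without the length trend). Mertk (-0.72) was not called. The complement genes C1qa (0.37), C1qb (0.19) and C1qc (-0.42) were not called. Scavenger and lectin receptors split, with 5 of 13 called higher and 2 lower, and their median of -0.49 (-0.11; -0.03) turned to 0.28 when scaling and length removal were combined and to 0.51 with a minimum of 5 FPKM. The lectins Clec4e, which binds a mycobacterial glycolipid (3.83), and Clec4n (3.58) were higher with Marco. The mannose receptor Mrc1 was at 39.8, 11.4 and 1.71 FPKM (-3.91).

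Macrophage identity genes had 5 of 20 called higher and 4 lower (median 0.33; 0.23; 0.79). The transcription factor Spi1 (0.33) and the M-CSF receptor Csf1r (511 to 446 FPKM; -0.19) were not called. Cebpb went from 38.5 to 364 FPKM (3.21), whereas Cebpa went from 108 to 26.3 (-2.005). The Fc receptors Fcgr1 (2.84) and Fcgr2b (2.47) were higher. Trem2 (-1.08) and Gpnmb (-1.01) were called lower, but Gpnmb (-0.75) was not with the length trend removed.

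Lipid synthesis was lower. Of 24 measured genes of cholesterol synthesis and uptake 18 were called lower and 0 higher, with a median of -1.63 (-1.57 without the length trend; -1.23 scaled), against -0.85 and 10 called lower in WT. All 18 were lower at 24 h than at 12 h. Sqle, which oxidises squalene, was at 49.7, 15.01 and 7.90 FPKM in KO (-2.51), and at 47.8 and 15.5 FPKM at 0 and 24 h in WT (-1.57). Stard4, a sterol carrier, stood at 9.97, 2.93 and 0.84 FPKM (-2.58). Idi1 (-2.49), Cyp51 (-2.21), Dhcr7 (-2.14) and Hmgcs1 (-1.99) were further enzymes of the pathway. The regulator Srebf2 was at 52.9 and 14.9 FPKM at 0 and 24 h (-1.76).

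Fatty acid synthesis had 10 of 16 called lower and 1 higher, with a median of -1.43 (-1.16; -1.04), against -0.43 and 2 called lower in WT. Fasn, the fatty acid synthase, was at 24.5, 3.68 and 1.22 FPKM in KO (-3.52), and at 14.2 and 4.73 FPKM at 0 and 24 h in WT (-1.41). The desaturase Fads2 was at 15.4, 1.29 and 0.34 FPKM (-3.62). Scd2, another desaturase, was at 13.2 and 3.55 FPKM in KO (-1.64) and at 11.8 and 23.5 FPKM in WT (0.94). The 1 member called higher was Acsl1, which activates fatty acids, at 19.1, 317 and 178 FPKM (3.16). The carboxylase Acaca, which commits acetyl-CoA to this pathway, was lower (-1.51, and -1.05 without the length trend), and the regulator Srebf1 (-0.84) was not called.

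LXR targets and cholesterol efflux genes split, with 5 of 18 called higher and 6 lower, and a median of -0.14 (-0.06) that turned to 0.31 when scaled and to 0.11 with a minimum of 5 FPKM. LXR is the nuclear receptor that senses oxysterols. Abca1, which exports cholesterol, was at 1.87, 22.4 and 9.88 FPKM in KO (1.92), and at 1.47 and 33.4 FPKM at 0 and 24 h in WT (3.80). The receptor gene Nr1h3 (1.87) and Ch25h, which makes an oxysterol (1.99), were higher. The cholesterol ester hydrolases Lipa (593 to 142 FPKM; -2.05) and Nceh1 (100.5 to 19.1 FPKM; -2.34) and the lysosomal exporter Npc1 (-1.72) were lower. Triglyceride and droplet genes had 4 of 18 called higher and 2 lower (median 0.23; 0.27; 0.69). Hilpda, an inhibitor of triglyceride breakdown, went from 5.20 to 41.3 FPKM (2.77), and Fabp3 from 21.1 to 67.5 (1.63). Lpl, the secreted lipoprotein lipase, was at 622, 278 and 198 FPKM (-1.65). The droplet coat gene Plin2 was at 650 and 763 FPKM at 0 and 24 h (0.23).

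Glycolysis and hypoxia genes were higher, with 13 of 23 called higher and 0 lower (median 1.15; 1.08; 1.61; WT 1.35). Of these 13, 12 were higher at 24 h than at 12 h. The lactate exporter Slc16a3 was at 43.1, 108 and 298 FPKM (2.76), Pfkfb3, which activates phosphofructokinase, at 14.1, 155 and 86.6 (2.54), and the glucose transporter Slc2a1 at 36.03, 113 and 118 (1.69). The enzymes Pfkl (2.41), Tpi1 (1.55), Pgk1 (1.34) and Ldha (1.20, but 0.97 without the length trend) were also called. Hif1a was at 20.3, 50.9 and 28.6 FPKM in KO (0.47), and at 14.2 and 82.3 FPKM at 0 and 24 h in WT (2.45). Fatty acid oxidation had 1 of 24 called higher and 5 lower (median -0.56; -0.59; -0.11), with the nuclear receptor Pparg at 18.4, 1.35 and 1.17 FPKM (-3.16). TCA cycle genes had 0 of 23 called higher and 4 lower (median -0.54; -0.50; -0.09). Idh3a (-1.55), Idh2 (-1.49) and Fh1 (-1.13) were called. The nuclear genes of oxidative phosphorylation had a median of 0.20 that turned to -0.18 with the length trend removed, with 0 of 34 called higher and 1 lower, Ndufs1 (-1.04). When scaled, their median was 0.67, with 7 called higher and 0 lower. The WT median as deposited was -0.41.

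Targets of NRF2, the regulator of the oxidative stress response, and genes of metal handling had 10 of 20 called higher and 1 lower (median 0.90; 0.77; 1.36). Of the 10, 9 were higher at 24 h than at 12 h. The ferritin heavy chain Fth1 was at 11198, 17244 and 40809.9 FPKM (1.87), and the heme oxygenase Hmox1 at 370.2, 1171 and 1884 (2.34). Sod2, the mitochondrial superoxide dismutase, went from 21.4 to 473 FPKM (4.40). Prdx1 (2.38), the cystine transporter Slc7a11 (3.11) and the metallothionein Mt2 (3.13) were higher, and Gclc was lower (-1.47). The ATF4 group, which includes serine synthesis, had 0 of 16 called higher and 7 lower (median -0.55; -0.43; -0.20), against 7 called higher and 4 lower in WT (median 0.28). These counts are as deposited, and when scaled 4 of the 16 were called higher and 6 lower in KO. Phgdh, the entry enzyme of serine synthesis, was at 60.4, 15.4 and 5.81 FPKM (-3.17), followed by Psat1 (-3.03) and Shmt2 (-2.59). The amino acid transporters Slc7a1 (-2.24) and Slc7a5 (-2.16) and Asns (-1.71) were called lower in KO, where their WT differences were -0.16, -0.46 and -0.02. Atf4 itself was at 81.5 and 134 FPKM at 0 and 24 h (0.71).

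The unfolded protein response had a median of 0.00 (-0.06 without the length trend; 0.47 scaled), with 1 of 14 called, Sel1l (-1.16, and -0.71 without the length trend). Immediate early and heat shock genes had 7 of 15 called higher and 1 lower (median 0.33; 0.69; 0.78). Ier3 was at 7.82, 136 and 211 FPKM (4.59) and Hspa1a at 1.16, 78.9 and 43.8 (4.38). Myc was lower (17.9, 1.36 and 3.39 FPKM; -2.11).

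Genes of cell division and of DNA replication were lower. All 26 measured genes of mitosis and cytokinesis were called lower, with a median of -4.22 (-4.07 without the length trend; -4.04 scaled) and -4.10 in WT. Of 29 genes of DNA replication and nucleotide synthesis 28 were called lower and 0 higher (median -2.999; -3.08; -2.73; WT -3.21). Summed levels of the mitosis genes were 856 FPKM at 0 h and 20.8 at 24 h, and those of replication genes 1561 and 292. Mki67, the proliferation marker, was at 53.7, 13.5 and 1.88 FPKM (-4.25). The replication helicase genes Mcm5 (-4.38), Mcm7 (-4.35) and Mcm3 (-3.77) were low with Mcm2. Pcna, the polymerase clamp, kept more of its level, at 531, 165 and 184 FPKM (-1.52). E2f1 (33.1 to 25.9 FPKM; -0.34) was the 1 replication gene not called. The p53 targets and arrest genes had 2 of 14 called higher and 3 lower, and a median of -0.30 (-0.31) that turned to 0.12 when scaled. The inhibitor Cdkn1a was at 175, 247 and 411 FPKM (1.23, but 0.95 without the length trend), and Cdkn2c at 33.1 and 0.91 at 0 and 24 h (-4.16).

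Histone genes had 4 of 9 measured called higher and 0 lower (median 0.89; 0.44; 1.33), against a median of -0.24 in WT. Hist2h2aa1 was at 25.1, 31.4 and 161 FPKM in KO (2.63) and at 27.5 and 35.8 FPKM at 0 and 24 h in WT (0.37). The other 3 were Hist1h2bc (1.76), Hist2h3c2 (1.49) and Hist1h2be (1.23). The measured histone transcripts had a median length of 1020 nt, and the part of length in their values was not tested.

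Housekeeping groups lay near the median gene as deposited. Ribosomal protein genes had a median of -0.36 that turned to 0.11 when scaled, with 1 of 30 called lower, Rpl3 (-1.41). With the length trend removed their median was -0.79, against -0.36 for all measured genes, and 10 of 30 were called lower. In WT, as deposited, the median was -1.06 and 22 were called lower. Lysosome genes had a median of -0.17 (-0.15) that turned to 0.29 when scaled, with 1 of 25 called higher, Ctsz (1.61), and 3 lower. The proton pump subunit Atp6v0d2 was at 46.2, 17.2 and 6.54 FPKM (-2.65). Reference genes had a median of -0.42 (-0.56) that turned to 0.05 when scaled, with 2 of 12 called higher and 3 lower. Actb differed by 0.55 and Gapdh by 0.80. Polr2a, the large subunit of RNA polymerase II, was at 60.5, 37.8 and 10.7 FPKM in KO (-2.40, and -1.90 without the length trend), and at 29.5 and 20.5 FPKM at 0 and 24 h in WT (-0.51).

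Enzymes that write or erase methylation at lysine 36 of histone H3 had 0 of 12 called higher and 3 lower, and a median of -0.69 (-0.28; -0.27) that turned to 0.03 when scaling and length removal were combined. Whsc1, a dimethyltransferase of this residue, was at 32.0, 6.88 and 5.24 FPKM in KO (-2.40) and at 21.9 and 6.66 FPKM at 0 and 24 h in WT (-1.58). The demethylase Kdm2b was at 15.51 and 3.25 FPKM (-1.96). Ash1l was called as deposited (-1.20) but not with the length trend removed (-0.63).

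**Figure D4:**
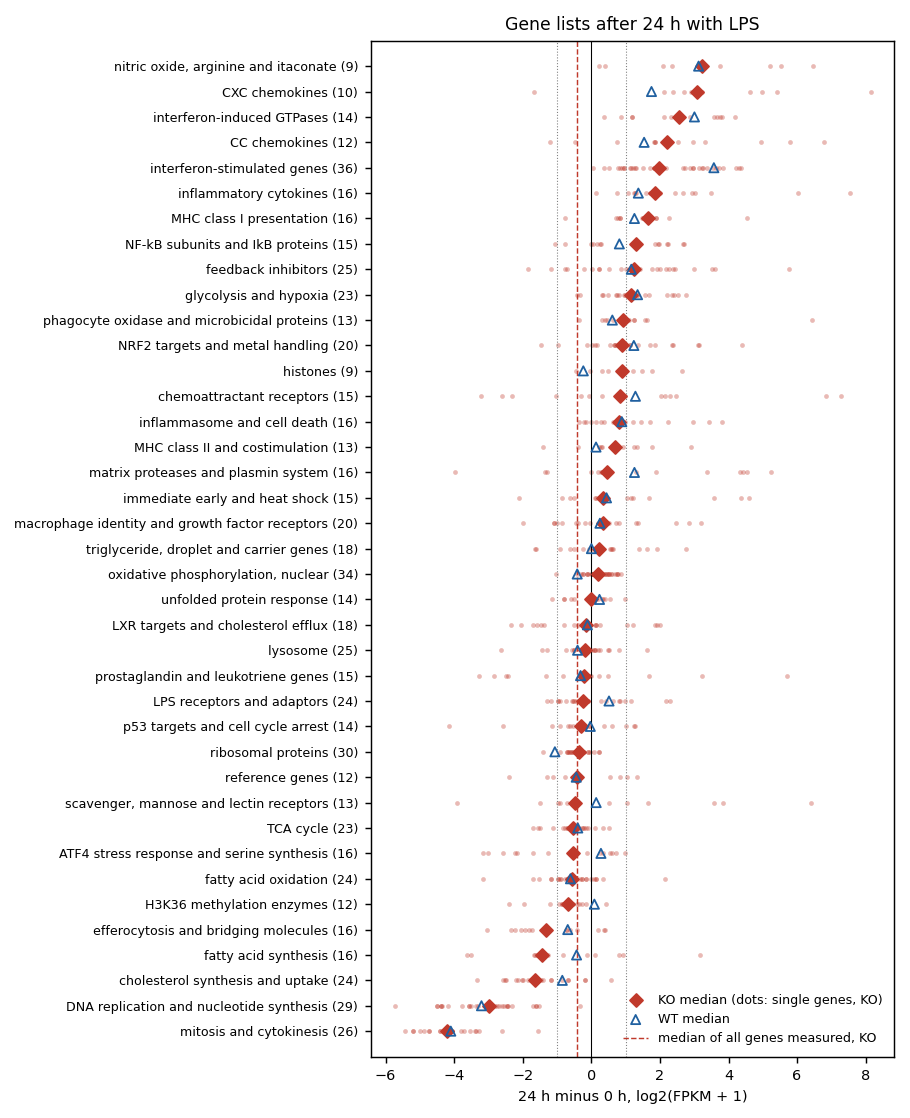
Difference at 24 h from 0 h on the log2(FPKM + 1) scale (x axis) for 39 gene lists (number of measured genes in brackets), with single genes in KO as dots, the KO median as a red diamond and the WT median as an open blue triangle. The dashed line is the median of all measured genes in KO, -0.41, and dotted lines mark 2-fold; medians run from 3.24 for nitric oxide, arginine and itaconate to -4.22 for mitosis, and 8 of those near 0 turn positive with trimmed-mean scaling.

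Called genes lay next to each other more often among those higher than among those lower. Of 872 genes called higher, 288 (33.0%) had an adjacent measured gene, starting within 100 kb, called higher, against 9.74% of all measured genes. For genes called lower this was 24.0%, against 22.9% of all measured genes. Runs of neighbouring measured genes that were all called higher included the Ly6 cluster on chromosome 15 (7 genes), the Ifit cluster on chromosome 19 (5 genes), Psmb9 to H2-Ab1 on chromosome 17 (5 genes), and Ccl2, Ccl7, Ccl12 and Ccl8 on chromosome 11 (4 genes). Many such runs are families of related genes. A run of 5 genes called lower on chromosome 11 held Tnfsf13, Tnfsfm13, Tnfsf12, Polr2a and Zbtb4.

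The 24 h responses of KO and WT share no library. In WT the 2-fold rule was met upward by 883 of 11044 measured genes (8%) and downward by 1601 (14.5%), and the median gene differed by -0.27. Of the genes called higher, 602 were shared, which is 69.0% of those of KO and 68.2% of those of WT. Of the genes called lower, 1121 were shared, 45.0% of those of KO and 70.0% of those of WT. Over the 10818 genes measured in both pairs, Pearson's r between the responses was 0.81 and Spearman's rho 0.63, across genes of 1 pair of libraries each, and r was 0.87 with the length trend removed from both. The genotypes called 13 genes higher in KO and lower in WT, and 13 the other way. For interferon-stimulated genes and for lipid synthesis the KO difference was the lower of the 2, with list medians of 1.98 against 3.57, of -1.63 against -0.85 (cholesterol) and of -1.43 against -0.43 (fatty acids). CXC chemokines went the other way (3.07 against 1.75). For mitosis genes the medians were -4.22 and -4.10. These list medians are as deposited, and the trend with length differed between the genotypes (rho of -0.37 in KO and 0.15 in WT). The part of length or scaling in these gaps was not tested, and none of them has a test.

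**Figure D5:**
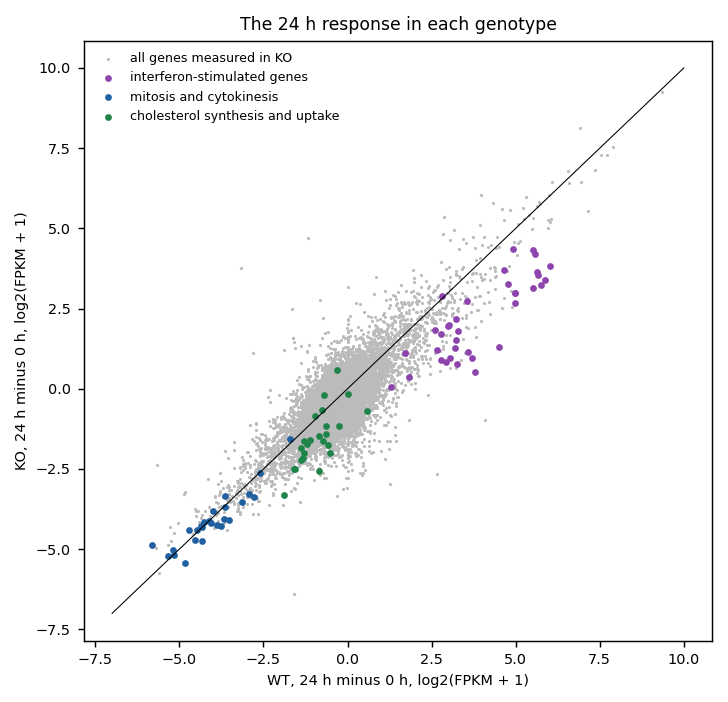
Each grey point is a gene measured in KO, placed by its 24 h minus 0 h difference on the log2(FPKM + 1) scale in WT (x axis) and in KO (y axis). The line marks equal responses. Interferon-stimulated genes (purple; medians 3.57 in WT and 1.98 in KO) lie mostly below it and mitosis genes (blue) lie along it; cholesterol genes (green; medians -0.85 and -1.63) lie mostly below it.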

How the data were processed

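Total RNA was prepared with TRIzol and libraries were run on a BGISEQ-500, per the labels' protocols. The deposited values are FPKM, per the file headers, which the authors gave to 2 decimals. Bowtie2, RSEM and GRCm38 are named in the submitters' processing notes; their versions and settings are not given in the sources used here. Counts were not used here. The table had 17905 rows, of which 1 names no gene. Symbols turned into dates in the table (25) were recovered through gene IDs, and 2 cells that are not numbers (Cd36 and Cers5, KO 0 h) were read as missing.

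Differences are of log2(FPKM + 1), 24 h minus 0 h. Depth was estimated from the spacing of low FPKM values, which comes from whole reads, for an assumed read length of 50. Each FPKM total and estimate belongs to 1 library. Transcript lengths came from GENCODE M21 (99.1% of measured genes). The length trend was a lowess curve (span 0.3) over log length, fitted for each library to its log2 FPKM relative to the mean of the 6 libraries. The fit used genes averaging at least 10 FPKM over the 6 libraries and above 0 in each. Named genes are the 15 highest and 15 lowest called genes with at least 5 FPKM in either library, and members of 39 lists: any called member and up to 5 with the largest difference. Predicted genes were counted and not named in the ranks (1 above the 15th highest, 2 above the 15th lowest). The members, lists and rules were chosen with earlier results of these data known. Computation used Python 3.11.15 with pandas 2.3.3, scipy 1.17.1 and statsmodels 0.14.6, tested on simulated data. Alternatives were other pseudocounts, minimum FPKM, fold rules, 2 scalings computed on the FPKM values and length removal.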

Additional observations from a re-analysis of the deposited data

Results flagged for a closer look

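The 6 genes given here were called in opposite directions at 24 h in the 2 genotypes. Each had at least 5 FPKM at 0 h or 24 h in both genotypes. The value given first is the KO response minus the WT response on the log2(FPKM + 1) scale. The difference between the genotypes was not tested, since each response rests on 1 library a side. For Cbl, a ubiquitin ligase that ends receptor signals, it was -3.06 (-1.62 in KO and 1.44 in WT). Cbl stood at 11.8, 20.2 and 3.18 FPKM at 0, 12 and 24 h in KO, on a transcript of 11372 nt. For Spred2, an inhibitor of Ras signalling, it was -2.93 (-1.93 and 1.01), and for Wdfy2 -2.79 (-1.63 and 1.16). For Plxna1, a semaphorin receptor, it was -2.25 (-1.04 and 1.20), and for Sorl1, a sorting receptor, -2.24 (-1.14 and 1.10). For Rsc1a1 it was 4.14 (2.50 and -1.64). Rsc1a1 overlaps another gene, so its reads are uncertain. With the length trend removed from both responses, Rsc1a1 (2.37 in KO and -1.55 in WT) was the 1 gene of the 6 still called in opposite directions. Cbl (-0.97 and 1.26) was then short of a call in KO, Spred2 (-1.88 and 0.97) and Wdfy2 (-1.17 and 0.99) in WT, and Plxna1 (-0.40 and 0.95) and Sorl1 (-0.51 and 0.87) in both. Cbl, Plxna1 and Sorl1 have transcripts over 8192 nt, the class that kept a median of -0.59 in KO after removal. At 0 h the first 5 were all higher in KO than in WT, with Cbl at 11.8 against 1.75 FPKM and Plxna1 at 72.2 against 23.7 FPKM.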

How the results depend on the processing

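As reported, 872 genes were called higher and 2489 lower. A pseudocount of 5 gave 577 and 1085, a 1.5-fold rule 1479 and 4585, and a 3-fold rule 496 and 973, each by construction. Median-of-ratios scaling gave 1456 and 1393 and trimmed-mean scaling 1502 and 1471. Trimmed-mean scaling with the length trend removed, an alternative chosen after seeing the data, gave 1300 higher and 1332 lower. Removing the length trend brought its rho from -0.37 to -0.041 by construction. A pseudocount of 0.1 (1018 and 3297), a minimum of 5 FPKM (715 and 1932) and length removal (849 and 2067) moved the counts by less than 1.5 times. Without a minimum the counts were the same, since a difference of 1 needs at least 1 FPKM. None of the 30 ranked genes changed sign in 240 recomputed values, where the smallest size was 2.57. The fold change behind 45 of these values moved by more than 1.5 times, which is a shift of log2(1.5) in the difference. All 45 came with a pseudocount of 0.1 or 5. Ccnb1 ran from -6.23 with 0.1 to -2.93 with 5, the median of mitosis genes from -5.62 to -2.54 and that of CXC chemokines from 4.54 to 2.53. Of 390 recomputed list medians 25 moved by that much. Medians of 8 lists changed sign under trimmed-mean scaling, as given with each. No paired analysis was possible because each group holds 1 library, so the groups share fewer than 2 replicate numbers, and for the same reason no library could be left out. A gene near 1 FPKM rests on about 60.5 reads at median length.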
